A study of Mus musculus with 4 samples.

Results

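Nuclear genes of the oxidative phosphorylation system were followed in the prostate of vasectomized and sham-operated mice. The members were taken by symbol, as the genes whose symbols began with Nduf, Uqcr, Cox4i, Cox5, Cox6, Cox7, Cox8 or Atp5, together with Sdha, Sdhb, Sdhc and Sdhd. Each gene was represented by its brightest probe set among those annotated with exactly 1 symbol, and 89 of the 22180 genes so represented were members. They comprised 34 genes of complex I, 4 of complex II, 8 of complex III, 17 of complex IV, 18 of complex V and 8 complex I assembly factors, whose symbols begin with Ndufaf. Of these, 87 were annotated as protein coding, and Atp5c1-ps and Uqcrh-ps1 were annotated as pseudogenes. Of 96 protein-coding symbols in RefSeq that met the same naming rule, 9 were not analysed here.

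Total RNA came from the lateral prostate of 4 C57BL/6 males with no transgene, 2 after vasectomy and 2 after sham surgery, with 1 whole-transcript Affymetrix array per mouse. According to the labels, surgery took place at the age of 16 weeks and harvest at 24 weeks, while the sample descriptions place the harvest 24 weeks after surgery, and the study's methods give a younger age at surgery and the dorsolateral lobe. The mice were numbered 1 and 2 in each group. The comparison asked which genes differ in the prostate after vasectomy, which divides the vas deferens and leaves the testes in place. Values are robust multi-array average (RMA) levels, taken as log2, so that a difference of 1 is a doubling if that scale is right.

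Oxidative phosphorylation is the process by which the inner mitochondrial membrane couples the oxidation of nutrients to the synthesis of ATP. Complexes I and II pass electrons to ubiquinone, complex III hands them to cytochrome c, complex IV reduces oxygen, and complex V, the ATP synthase, uses the proton gradient that complexes I, III and IV build. Most subunits are encoded in the nucleus, and a small core is encoded by mitochondrial DNA, which the naming rule used here does not take in. In the prostate of several mammals, luminal secretory cells are known for accumulating citrate, which other tissues oxidize to feed this chain.

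The transcription factors NRF1, GABPA and YY1 are known to bind promoters of many of these genes, so their core letters were looked for in RefSeq promoter windows of GRCm38.p6 that reach from 250 bases before to 50 bases after an annotated start. A window was found for 72 of the 89 members, and 77 windows were found in all, since some genes have several starts. The letters searched on both strands were GCGCANGCG for NRF1, CCGGAAG for the ETS family to which GABPA belongs, and AAGATGGCG for YY1. NRF1 matches on opposite strands can overlap each other, and the ETS letters end in AAG, with which the YY1 letters begin, although this joint form was in 0 member windows. The NRF1 core was in 21 of the 77 member windows (27.3%), against 6.25% of all 32851 windows and 8.58% of windows of protein-coding genes. The ETS core was in 24.7% of member windows, 8.86% of all windows and 11.6% of windows of protein-coding genes, and the YY1 core in 9.09%, 1.40% and 1.83%. Other gene sets held them often too. In windows of the mitochondrial ribosome the NRF1 core stood in 20.6%, the ETS core in 33.8% and the YY1 core in 11.8%, and in windows of the cytosolic ribosome they stood in 15.5%, 36.2% and 3.45%. The element of the estrogen-related receptors, TCAAGGTCA, was in 2 member windows, those of Sdhd and Atp5g3 (2.60%, against 0.423% of all windows).

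At least 1 of the first 3 cores was in 39 member windows (50.6%), against 14.8% of all windows and 19.6% of windows of protein-coding genes. By complex, these were 15 of 32 windows of complex I, 3 of 3 of complex II, 3 of 4 of complex III, 3 of 13 of complex IV, 11 of 18 of complex V and 4 of 7 of the assembly factors. None of the 4 windows of tissue-restricted isoforms held one. Among the other complex IV genes, the windows of Cox6a1, Cox6b1 and Cox8a held one. Those of Cox5a, Cox5b, Cox7a2, Cox7a2l, Cox7b and Cox7c did not. A match is a description of letters and not a binding site. Stretches of 150 bases before the start are shown for a member of each of complexes I, III, IV and V in which a core was found and no other annotated gene overlapped, and for Cox7a1 and Cox8b, 2 muscle-type isoforms of complex IV without a match. They were chosen as examples with the results known. Capitals mark the cores. The stretches lie just upstream of the annotated genes, at chr8:83566608-83566757 (plus strand) for Ndufb7, chr10:80406822-80406971 (minus strand) for Uqcr11, chr5:115348959-115349108 (minus strand) for Cox6a1, chr11:115419920-115420069 (minus strand) for Atp5h, chr7:30184021-30184170 (plus strand) for Cox7a1 and chr7:140900447-140900596 (minus strand) for Cox8b. Each is written 5′ to 3′ along the strand of its gene.
Ndufb7: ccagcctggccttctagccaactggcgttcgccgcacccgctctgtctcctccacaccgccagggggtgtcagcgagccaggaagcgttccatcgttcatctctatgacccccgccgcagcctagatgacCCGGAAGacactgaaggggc
Uqcr11: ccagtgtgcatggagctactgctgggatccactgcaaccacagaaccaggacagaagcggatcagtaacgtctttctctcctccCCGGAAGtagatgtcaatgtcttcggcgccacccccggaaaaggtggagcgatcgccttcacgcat
Cox6a1: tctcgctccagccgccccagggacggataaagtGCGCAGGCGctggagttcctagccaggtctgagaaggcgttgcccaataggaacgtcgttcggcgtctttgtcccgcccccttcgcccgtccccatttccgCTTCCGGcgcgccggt
Atp5h: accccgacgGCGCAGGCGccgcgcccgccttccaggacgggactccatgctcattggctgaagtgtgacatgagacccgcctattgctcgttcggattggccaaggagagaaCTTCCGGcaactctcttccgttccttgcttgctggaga
Cox7a1: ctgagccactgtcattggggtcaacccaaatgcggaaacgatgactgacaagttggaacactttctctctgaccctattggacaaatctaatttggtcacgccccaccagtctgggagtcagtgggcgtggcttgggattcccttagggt
Cox8b: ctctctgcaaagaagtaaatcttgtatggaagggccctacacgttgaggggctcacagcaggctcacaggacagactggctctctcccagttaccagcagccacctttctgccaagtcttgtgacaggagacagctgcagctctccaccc
The capitals are the ETS core in Ndufb7 and Uqcr11, and the NRF1 core followed by the ETS core in Cox6a1 and Atp5h. The window of Uqcr11 also held an NRF1 core, outside the stretch printed. The values of these 6 genes are given with their complexes.

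One library stood apart from the rest in several gene lists, although the other arrays were not alike either. In vasectomy array 2 all 7 measured genes of a seminal vesicle list were at their highest, with a median deviation of 2.29 from each gene's mean over the 4 arrays, and 6 of 7 adipocyte genes were also highest there, with a median deviation of 1.32. The secretory protein gene Sbp and the protease inhibitor gene Spink5 were low in that array, at 3.37 and 4.96, against at least 12.37 and 11.45 in the other arrays. Of 10 luminal prostate genes, 8 were lowest in that array, with a median deviation of -0.28, among them Msmb at 9.34 against at least 11.65 in the others, while Pbsn and Tgm4 were at 12.39 or more in all 4 arrays. Seminal vesicle genes also differed among the other arrays. In vasectomy array 1, sham array 1 and sham array 2, Svs2 was at 10.26, 12.49 and 7.62, and Svs4 at 7.04, 10.63 and 9.75. Of 8 smooth muscle genes, 5 were higher in both vasectomy arrays than in both sham arrays (62.5%, where 12.5% of all genes were). The members did not stand apart with vasectomy array 2. Their median deviation was 0.00 in vasectomy array 1, -0.01 in vasectomy array 2, -0.01 in sham array 1 and 0.02 in sham array 2. Across the 89 members, which share their arrays and probe chemistry, the correlation between arrays was 0.988 to 0.996, and across all genes it was 0.970 to 0.989.

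**Figure D1:**
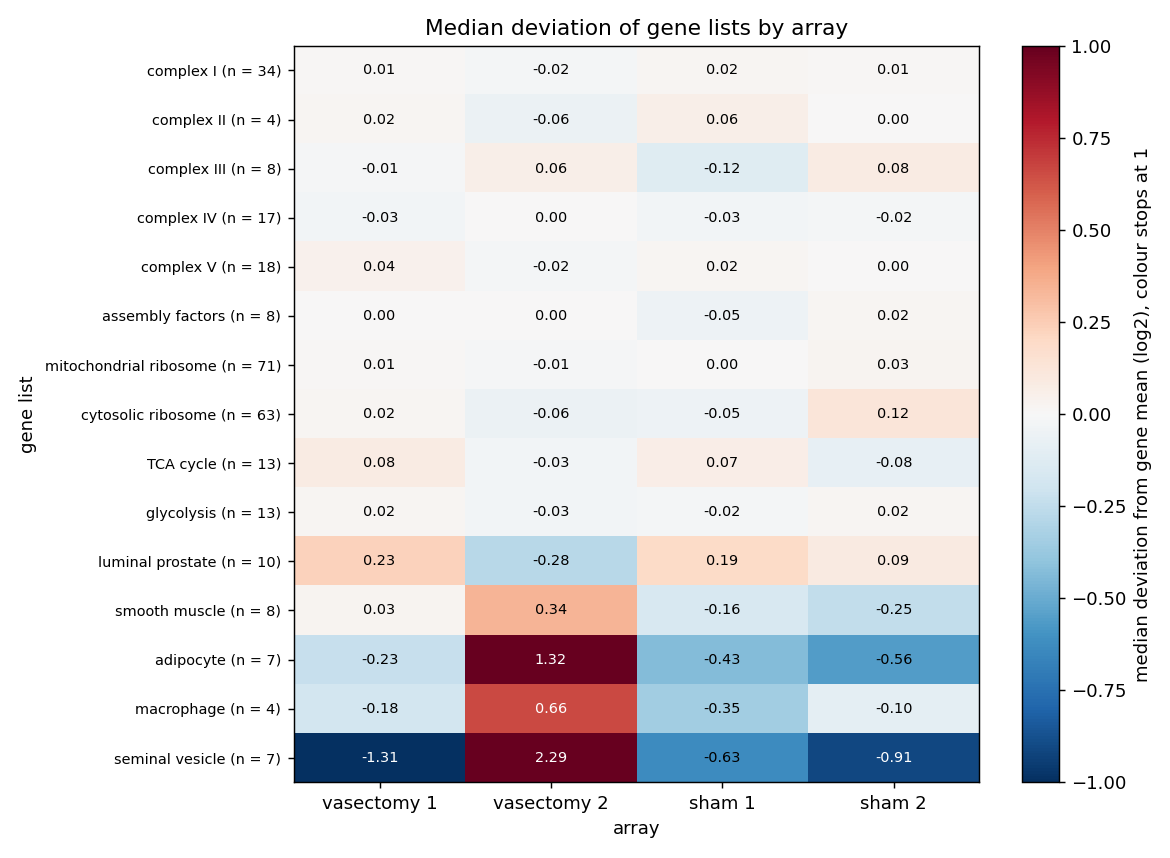
Median deviation of each gene list from its genes' means over the 4 arrays (log2; rows are lists with their number of genes, columns are arrays, and colour stops at 1). The 6 oxidative phosphorylation rows stay between -0.12 and 0.08, while the seminal vesicle row reaches 2.29 and the adipocyte row 1.32 in vasectomy array 2.

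No oxidative phosphorylation gene passed the test between vasectomized and sham-operated prostates, and as a group they were centred on no difference. Of the 89 members, 44 had a higher and 44 a lower mean after vasectomy and Sdhb had the same mean in both, and the median difference was 0.00 (range -0.51 to 0.24), equal to the median of 0.00 over all genes. None of the 89 passed limma's test at an adjusted p under 0.05, and none of the 22180 genes did (0%). At an unadjusted p under 0.05 the count was again 0 of 89, where 2.04% of all genes passed, and the lowest value belonged to Cox7b2. In bulk tissue, fewer cells of a type and less RNA per cell cannot be told apart.

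The groups did not overlap in 11 members. Both vasectomy arrays were above both sham arrays in 5 members (5.62%), where 12.5% of all genes were, and below both in 6 (6.74%), where 12.0% of all genes were. The higher members were Uqcrc1, Atp5j, Ndufb8, Uqcrc2 and Ndufaf5, and the lower ones Ndufb11, Atp5g3, Atp5l, Sdhd, Ndufs3 and Cox7b2. Both shares lay below those of all genes, but this order rested on both sham arrays. Without sham array 1 the shares of members were 31.5% higher and 38.2% lower, against 27.7% and 30.3% of all genes, and without sham array 2 they were 36.0% and 30.3%, against 31.1% and 28.8%. Without vasectomy array 2, no member passed the test either and the median difference was 0.01, in a fit that takes the lone vasectomy array to vary as the sham arrays do.

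The spread between mice was small. The range over the 4 arrays had a median of 0.32 for the members, 0.39 for all genes and 0.38 for the 13556 genes above a background stand-in of 4.625, the level below which 95% of 1394 odorant and pheromone receptor genes lay. It was under 0.5 for 76 of the 89 members (85.4%) and for 66.7% of all genes, and over 1 for 0 members and 4.55% of all genes. The widest ranges were those of Atp5o at 0.94, Ndufb11 at 0.83 and Cox7b2 at 0.83. The 71 mitochondrial ribosome genes had a median range of 0.34 and the 63 cytosolic ribosome genes one of 0.33, both close to that of the members.

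**Figure D2:**
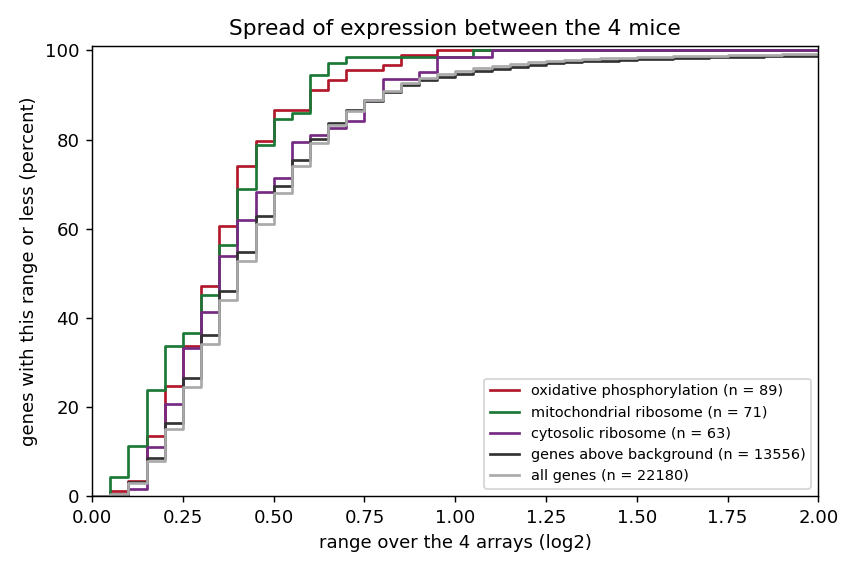
Cumulative share of genes (percent) by the range of their values over the 4 arrays (log2), for oxidative phosphorylation genes, the mitochondrial and cytosolic ribosome, genes above the background stand-in and all genes. The oxidative phosphorylation curve reaches 85.4% below a range of 0.5 and ends at 0.94.

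How small a difference these arrays could bound was read from limma's 95% intervals. The interval lay within a 1.5-fold change in either direction for 59 of the 89 members (66.3%, against 48.7% of all genes) and within 2-fold for 87 (97.8%, against 92.8%). The exceptions were Cox7b2, with an interval of -1.08 to 0.06, and Atp5o, with -1.07 to 0.18. The median standard error (SE) of a member's difference was 0.18.

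**Figure D3:**
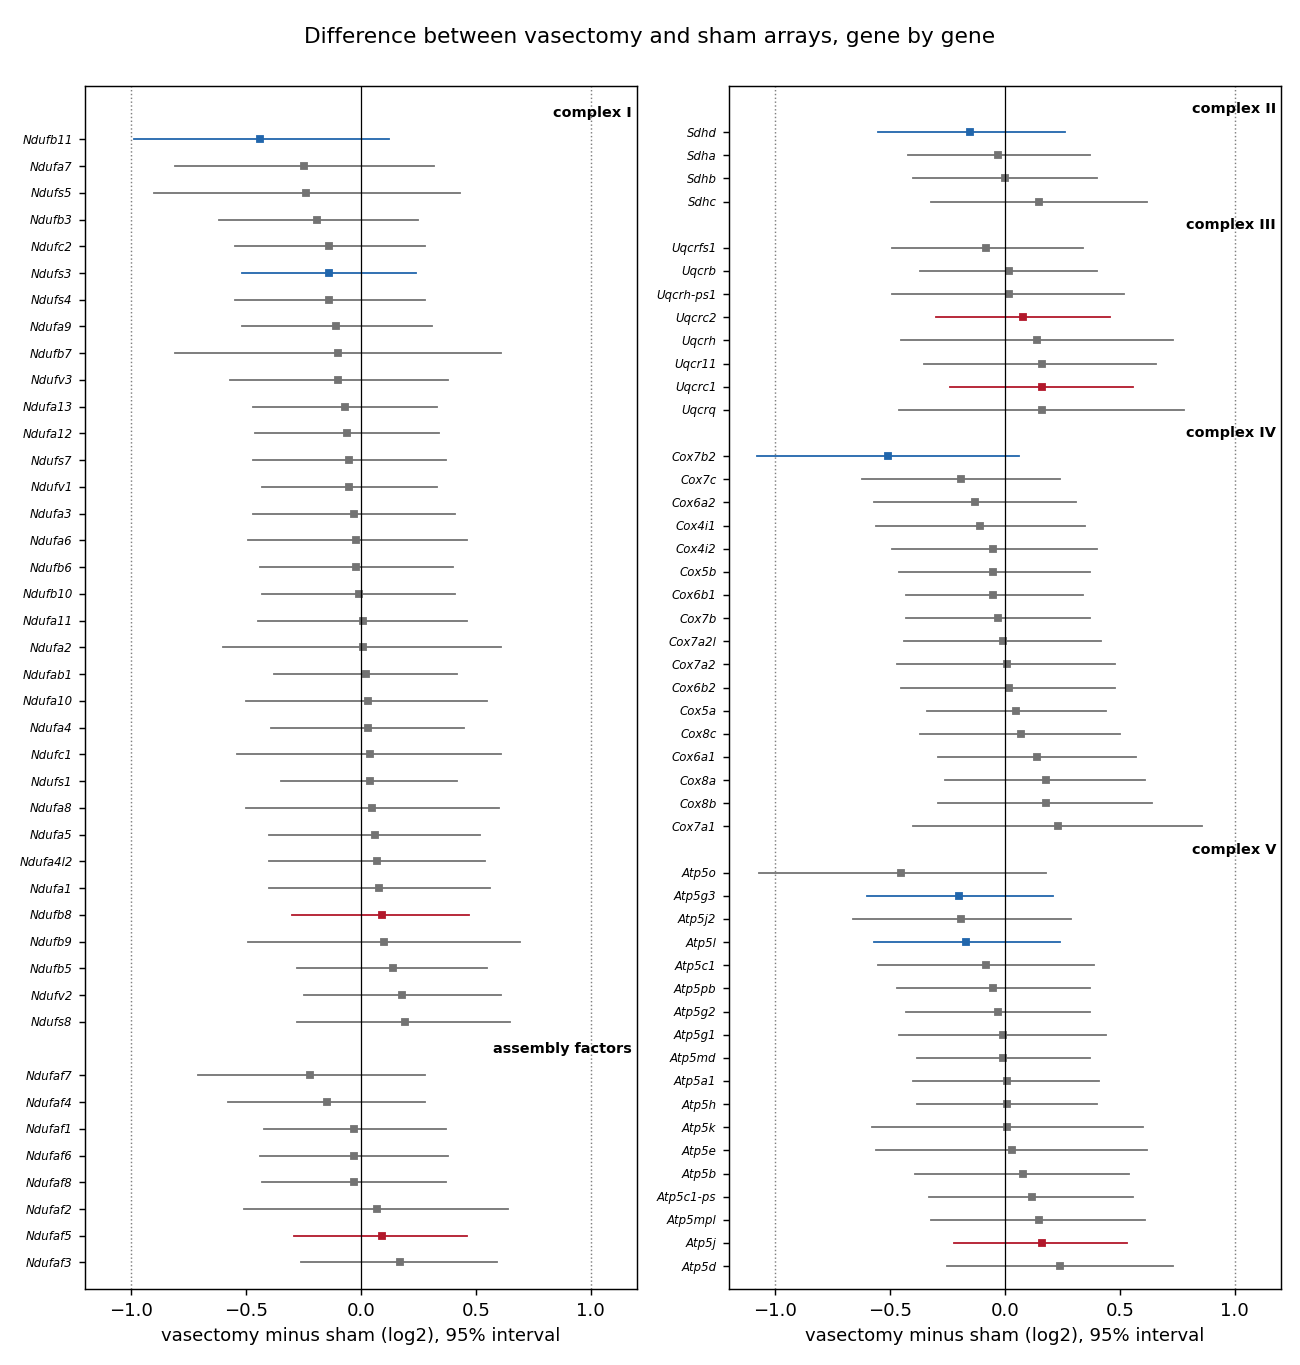
Difference between the vasectomy and sham means (log2) with limma's 95% interval for all 89 genes, by complex and in order of the difference. Red marks the 5 genes with both vasectomy arrays above both sham arrays, blue the 6 below, grey the rest, and dotted lines a 2-fold change; every interval includes 0.

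Complex I, the NADH dehydrogenase, had a median difference of -0.01 over 34 genes, from -0.44 for Ndufb11 to 0.19 for Ndufs8. Of these, 16 had a higher and 18 a lower mean after vasectomy. Among the genes of the electron-carrying arm, Ndufv1, which binds NADH and flavin, read 7.97 and 7.91 after vasectomy and 7.96 and 8.02 after sham surgery (difference -0.05, SE 0.15). Ndufs1, the largest iron-sulfur subunit, read 7.02 and 6.96 against 6.92 and 6.99. Both genes overlapped between the groups, within a range of 0.11 or less. Ndufs3, a core subunit of the arm that reaches into the matrix, read 5.92 and 6.00 after vasectomy and 6.12 and 6.08 after sham surgery, a mean of 5.96 ± 0.06 against 6.10 ± 0.03 (SD, n = 2 each). The groups were apart by 0.08 between their nearest arrays.

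In the membrane arm, Ndufb8, an accessory subunit often used as a sign of assembled complex I, read 6.58 and 6.51 after vasectomy and 6.43 and 6.49 after sham surgery (difference 0.09, SE 0.16). The vasectomy arrays were the higher ones, by 0.02 between the nearest arrays of the groups. Ndufb11, an X-linked accessory subunit needed for assembly of the membrane arm, read 4.80 and 5.11 after vasectomy and 5.15 and 5.63 after sham surgery. Its mean was 4.96 ± 0.22 against 5.39 ± 0.34 (SD, n = 2 each), 0.740 times the sham level, with an adjusted p = 1 in limma. The groups were apart by 0.04 between their nearest arrays. Ndufa4, first described with complex I and since assigned to complex IV, read 9.40, 9.49, 9.30 and 9.53 in vasectomy arrays 1 and 2 and sham arrays 1 and 2.

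Other genes of complex I differed more between mice than between groups. Ndufb7, an accessory subunit of the membrane arm whose upstream stretch is printed above, read 6.80 and 7.32 after vasectomy and 6.83 and 7.49 after sham surgery. Ndufa2, an accessory subunit of the matrix arm, read 8.11 and 8.54 against 8.07 and 8.57. In both genes the mice numbered 2 were the higher ones of either group, and the differences between group means were -0.10 and 0.01. Ndufs5, a small intermembrane-space subunit that was below the background stand-in, had the same order at 3.77 and 4.32 against 4.02 and 4.54. Ndufb9 had the other order, at 10.14 and 9.93 against 10.23 and 9.64. Nothing in the labels says what mice of one number share.

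The 8 assembly factors, which help to build complex I but are not part of it, had a median difference of -0.03, from -0.22 for Ndufaf7, a methyltransferase, to 0.17 for Ndufaf3. Ndufaf5 was the one whose groups did not overlap, at 4.16 and 4.22 against 4.10 and 4.11, below the background stand-in.

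Complex II, succinate dehydrogenase, is the one complex built from nuclear genes alone and also a step of the tricarboxylic acid (TCA) cycle. Its flavoprotein gene Sdha read 9.13 and 9.08 after vasectomy and 9.20 and 9.06 after sham surgery, and the iron-sulfur gene Sdhb 7.55 and 7.66 against 7.52 and 7.69. The groups overlapped in both, with differences of -0.03 and 0.00 (SE 0.16 each). Of the membrane anchors, Sdhc read 7.80 and 7.47 against 7.60 and 7.37 (difference 0.15). Sdhd read 8.03 and 7.82 against 8.08 and 8.06 (difference -0.15), without overlap. The anchors thus leaned in opposite directions, and neither passed the test.

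Complex III, the cytochrome bc1 complex, was the complex whose genes most often had a higher mean after vasectomy, with 7 of 8 positive differences and a median of 0.11 (range -0.08 to 0.16). Without sham array 1 the median was -0.04, and without vasectomy array 2 it was 0.04. None of the 8 passed the test, and 1 of the 7 was the pseudogene Uqcrh-ps1. Sham array 1 was the lowest array in 6 of the 8. Uqcrc1, a core protein of the matrix face, read 8.79 and 8.71 after vasectomy and 8.68 and 8.50 after sham surgery, 8.75 ± 0.06 against 8.59 ± 0.13 (SD, n = 2 each; difference 0.16, SE 0.16, adjusted p = 1 in limma). Its partner Uqcrc2 read 8.81 and 8.90 against 8.77 and 8.78 (difference 0.08, SE 0.15). The groups of both core proteins were apart by 0.03 between their nearest arrays. Uqcrfs1, the Rieske iron-sulfur protein that passes electrons onward, went the other way, at 6.85 and 6.79 against 7.02 and 6.77 (difference -0.08).

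The small subunits of complex III varied with the mouse. Uqcrh, the hinge protein at the cytochrome c1 contact, read 8.61 and 8.83 after vasectomy and 8.28 and 8.88 after sham surgery. Uqcrq, a ubiquinone-binding subunit, read 5.98 and 6.28 against 5.66 and 6.28, and Uqcr11, the smallest subunit, 6.98 and 7.18 against 6.71 and 7.14. In each of these 3 genes sham array 1 was lowest and the groups overlapped. Uqcrb read 9.45, 9.40, 9.38 and 9.44 in vasectomy arrays 1 and 2 and sham arrays 1 and 2, a range of 0.07.

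**Figure D4:**
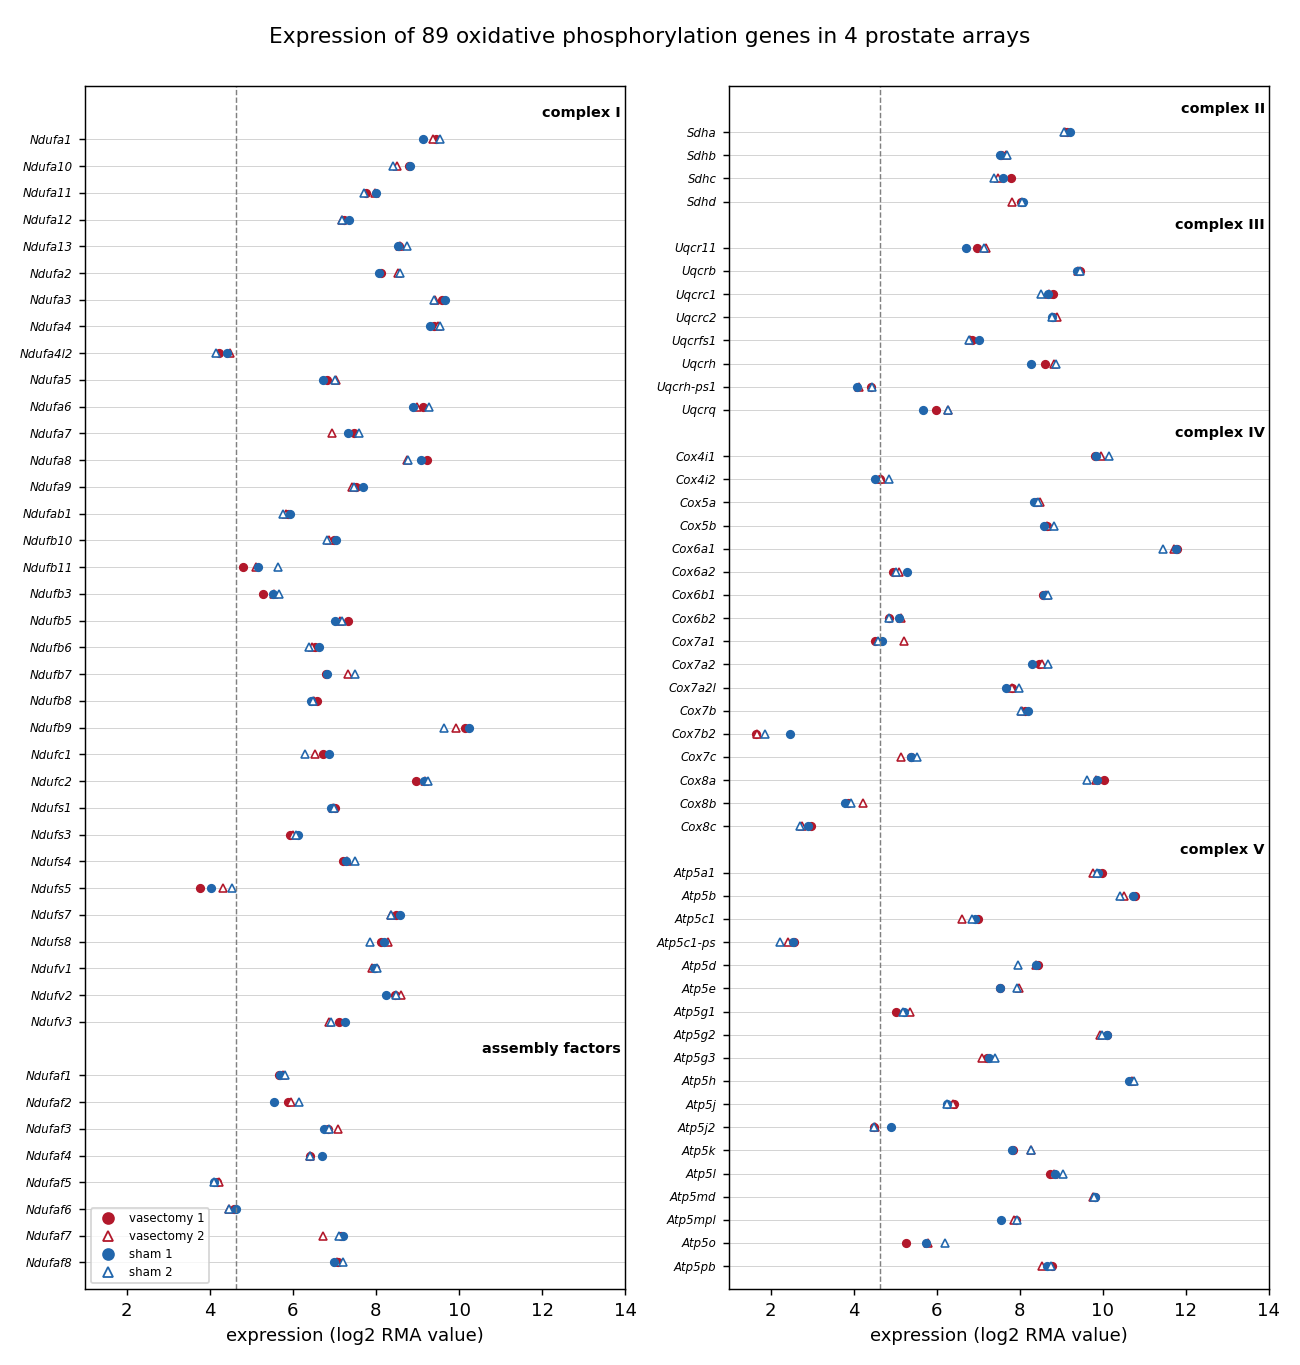
Levels (log2 RMA value) of all 89 genes in each of the 4 arrays, by complex. Filled circles are mice 1 and open triangles mice 2, red for vasectomy and blue for sham surgery, and the dashed line is the background stand-in at 4.625, above which the means of 79 genes lay; levels of different genes come from different probe sets and are not comparable.

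Complex IV, cytochrome c oxidase, had a median difference of -0.01 over 17 genes (range -0.51 to 0.23), with 8 higher and 9 lower means. Its subunits of wide expression overlapped between the groups throughout. Cox4i1, the regulatory subunit, read 9.80 and 9.96 after vasectomy and 9.83 and 10.14 after sham surgery (difference -0.11, SE 0.18). Cox5a read 8.40 and 8.48 against 8.33 and 8.45, and Cox5b, which binds zinc, 8.66 and 8.66 against 8.59 and 8.82. The group means of these 3 lay within 0.11 of each other. Cox7c, at 5.38 and 5.14 against 5.38 and 5.52, had the most negative difference of the widely expressed subunits, -0.19 (SE 0.17).

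Several subunits of complex IV exist as a widely expressed gene and a gene used in heart, skeletal muscle, lung or testis. Of the 8 tissue-restricted genes, 4 had a mean below the background stand-in (Ndufa4l2, Cox7b2, Cox8b and Cox8c) and the other 4 (Cox4i2, Cox6a2, Cox6b2 and Cox7a1) had single values of 4.51 to 5.28, around or just above it. Among the widely expressed partners, Cox6a1 read 11.78 and 11.71 after vasectomy and 11.75 and 11.46 after sham surgery, and Cox8a 10.02 and 9.83 against 9.87 and 9.63. Cox6b1 read 8.57 and 8.62 against 8.59 and 8.69, Cox7a2 8.46 and 8.54 against 8.30 and 8.69, and Cox7b 8.13 and 8.05 against 8.20 and 8.04. None of these 5 was without overlap, and their differences ran from -0.05 to 0.18. Cox7a2l, a relative of the subunit 7a genes known as a factor that joins complexes III and IV, read 7.81 in both vasectomized mice and 7.67 and 7.97 in the controls.

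Cox7a1, the heart and muscle form of subunit 7a that is also found in fat, read 4.51 and 5.21 after vasectomy and 4.68 and 4.58 after sham surgery. Its difference of 0.23 (SE 0.26) came from vasectomy array 2, and without that array the difference was -0.12. Cox8b, the muscle form of subunit 8, was also highest in vasectomy array 2, at 4.22, against 3.80 to 3.94 in the other arrays. In the same array the muscle genes Acta1 and Ckm were at 9.60 and 6.38, against at most 9.09 and 5.96 elsewhere, all 8 smooth muscle genes were highest, and the adipocyte genes Fabp4 and Cidec were at 8.16 and 6.40, against at most 6.28 and 4.45. Of the 12 skeletal muscle genes, 5 were highest in vasectomy array 2 and 4 were lowest there, among them the myosin gene Myh4 at 2.88, and the mean log2 level of the list ran from 5.08 to 5.45 over the 4 arrays. The part of these cells in the Cox7a1 and Cox8b values was not tested. Cox6a2, a further muscle form, read 4.94 and 5.09 against 5.28 and 5.01 and was highest in sham array 1.

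The member with the lowest p was Cox7b2, a testis form of subunit 7b, at 1.64 and 1.68 after vasectomy and 2.47 and 1.87 after sham surgery. The difference of -0.51 (SE 0.23, adjusted p = 1 in limma) lay far below the background stand-in and rested mostly on sham array 1. Of the other forms, Cox4i2, known from lung and oxygen sensing, read 4.64 and 4.65 against 4.52 and 4.86, Cox6b2, a testis form, 4.84 and 5.13 against 5.09 and 4.85, Cox8c 2.98 and 2.76 against 2.90 and 2.71, and Ndufa4l2, a gene induced by low oxygen, 4.22 and 4.49 against 4.42 and 4.15. The groups overlapped in all 4.

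**Figure D5:**
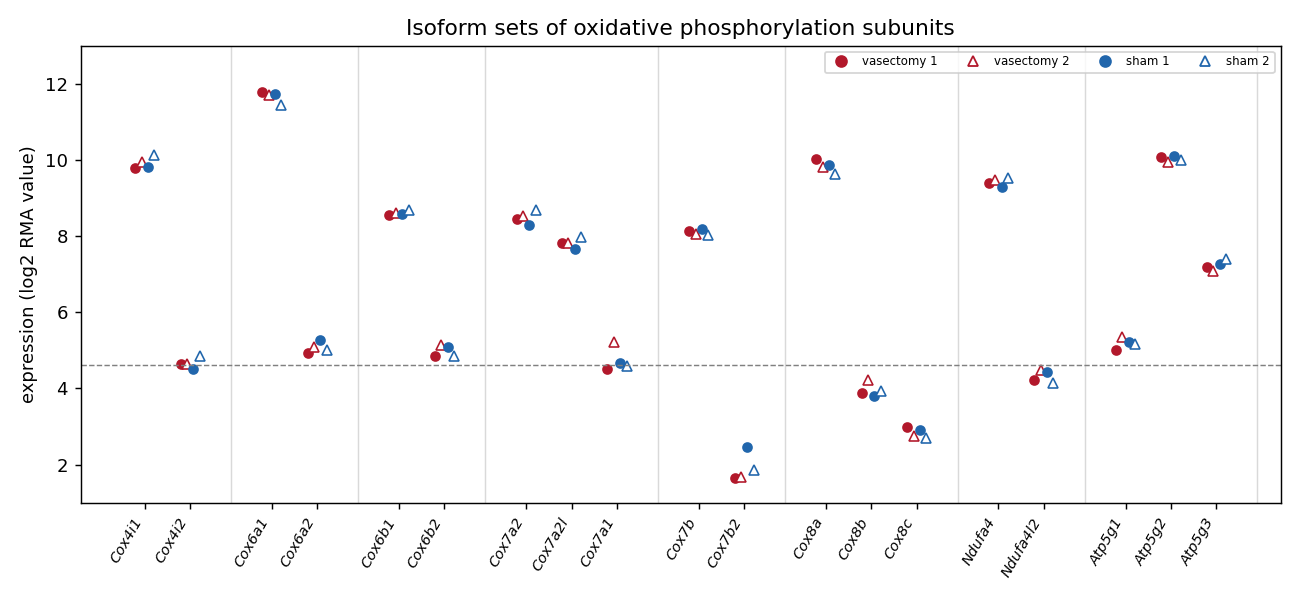
Levels (log2 RMA value) of isoform sets in each array, with red for vasectomy, blue for sham surgery, filled circles for mice 1 and open triangles for mice 2. The dashed line is the background stand-in at 4.625; the tissue-restricted forms lie at 5.28 or less, and Cox7a1 is highest in vasectomy array 2.

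Complex V, the ATP synthase, had a median difference of 0.00 over 18 genes (range -0.45 to 0.24), with 9 higher and 9 lower means. In the catalytic head the groups overlapped. Atp5a1, the alpha subunit, read 9.98 and 9.77 after vasectomy and 9.88 and 9.86 after sham surgery (difference 0.01, SE 0.16), and Atp5b, the catalytic beta subunit, 10.77 and 10.52 against 10.72 and 10.42 (difference 0.08, SE 0.19). Atp5c1, the gamma subunit of the central shaft, read 7.00 and 6.61 against 6.91 and 6.86 (difference -0.08). Atp5d, the delta subunit of the shaft, had the most positive difference of the 89 members, 0.24 (SE 0.20), at 8.43 and 8.38 against 8.38 and 7.95. In this probe set it rested on sham array 2, since the other 3 arrays lay within 0.05. A second probe set of Atp5d, with a mean of 7.62, read 7.82 and 7.55 against 7.62 and 7.49 (difference 0.13).

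The ring of c subunits is encoded by 3 genes with one mature product. Atp5g1 read 5.02 and 5.36 after vasectomy and 5.22 and 5.18 after sham surgery, and Atp5g2 10.09 and 9.94 against 10.10 and 9.99. Both overlapped. Atp5g3 read 7.20 and 7.08 against 7.26 and 7.41 and was lower in both vasectomy arrays, with means of 7.14 ± 0.08 and 7.34 ± 0.11 (SD, n = 2 each; difference -0.20, SE 0.16, adjusted p = 1 in limma).

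Genes of the peripheral stalk, which holds the head still against the rotating ring, went both ways. Atp5o, the oligomycin sensitivity-conferring protein at the top of the stalk, read 5.26 and 5.78 after vasectomy and 5.73 and 6.20 after sham surgery. Its means of 5.52 ± 0.37 and 5.97 ± 0.33 (SD, n = 2 each) gave 0.735 times the sham level (difference -0.45, SE 0.26, adjusted p = 1 in limma), and the groups overlapped, with each group spanning as much as the difference itself. Atp5j, the stalk's coupling factor, was higher in both vasectomy arrays by 0.14 between the nearest arrays of the groups, at 6.41 and 6.39 against 6.24 and 6.25. Its means of 6.40 ± 0.01 and 6.25 ± 0.01 (SD, n = 2 each) differed by 0.16 (SE 0.15, adjusted p = 1 in limma). Atp5h, the d subunit, read 10.68 and 10.70 against 10.62 and 10.74, and Atp5pb, the b subunit, 8.78 and 8.53 against 8.65 and 8.76. In these 2 the groups overlapped. A second, much dimmer probe set of Atp5h, with a mean of 4.80 just above the background stand-in, had a difference of 0.38. Which of the 2 represents the gene was not tested.

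Of the small membrane subunits, Atp5l, subunit g, read 8.73 and 8.83 after vasectomy and 8.85 and 9.04 after sham surgery (difference -0.17, SE 0.17), with 0.02 between the nearest arrays of the groups. Atp5k, subunit e, read 7.84 and 8.27 against 7.82 and 8.27, and Atp5e, the epsilon subunit of the shaft, 7.52 and 7.99 against 7.52 and 7.93. In both of these genes, as in Ndufb7 and Ndufa2, the mice numbered 2 lay above the mice numbered 1 in either group. Atp5md, a subunit that helps the synthase to form dimers, had the smallest range of all members, 0.05, at 9.82 and 9.77 against 9.82 and 9.78.

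Other mitochondrial genes, outside the naming rule, also gave no call. Of 9 carriers and further subunits, Slc25a4, an ADP/ATP exchanger, and Slc25a3, the phosphate carrier, were higher without overlap (22.2%, where 12.5% of all genes were). Etfb, part of the electron transfer flavoprotein, was lower without overlap (11.1%, where 12.0% of all genes were). None of the 9 reached an unadjusted p under 0.05. Cycs, the somatic cytochrome c, read 8.76 and 8.85 after vasectomy and 8.80 and 8.65 after sham surgery, and Cyc1, the cytochrome c1 of complex III, 7.20 and 7.01 against 7.08 and 7.38. Of 38 assembly factors outside the rule, 35 were measured and none passed, with differences from -0.26 to 0.26.

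Of the 15 regulators, none passed. Hif1a (difference 0.23) was higher without overlap (6.67%, where 12.5% of all genes were). Esrrg (-0.23) and Gabpb1 (-0.10) were lower without overlap (13.3%, where 12.0% of all genes were). Nrf1 read 6.44 and 6.36 against 6.40 and 6.40, Gabpa 7.10 and 7.01 against 7.00 and 7.11, Tfam, which packages mitochondrial DNA, 5.32 and 5.52 against 5.30 and 5.47, and Esrra, an estrogen-related receptor, 6.54 and 6.78 against 6.77 and 6.76. All 4 stayed within a range of 0.24. Ppargc1a, the coactivator that drives mitochondrial gene programmes, was the one regulator that varied widely, at 5.72 and 5.23 after vasectomy and 6.26 and 5.14 after sham surgery, a range of 1.12. It was higher in the mice numbered 1 of both groups. In those 2 arrays, vasectomy array 1 and sham array 1, the members had a median deviation of 0.00 and -0.01. The TCA cycle genes had one of 0.08 and 0.07. A link between Ppargc1a and either list was not tested.

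The 13 measured TCA cycle genes had a median difference of 0.01 (range -0.16 to 0.15) and the 71 genes of the mitochondrial ribosome one of 0.00, with 4 higher (5.63%) and 11 lower (15.5%) without overlap, where 12.5% and 12.0% of all genes were. The 63 genes of the cytosolic ribosome had a median of -0.04, with 3 higher (4.76%) and 7 lower (11.1%). None of these genes passed limma's test at an adjusted p under 0.05.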

How the data were processed

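Total RNA from 4 mouse prostates was hybridised to whole-transcript Affymetrix arrays, 1 per mouse. The authors summarised the scans with Affymetrix Expression Console 1.3.1 by RMA, per the labels, and deposited 1 value per probe set with 2 decimals. No source used here names the log base of the deposited values, which were taken as log2. The array medians were 4.80 to 4.82. The study's methods name a human array, while the probe annotation given with the values is of mouse genes. RMA with quantile normalisation removes any shift shared by most genes.

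Of 41345 probe sets, 23521 carried 1 symbol, 1820 several and 16004 none. The brightest probe set per symbol, by the mean of the 4 arrays, gave 22180 genes, and 0 value columns could not be mapped to a sample. Vasectomy was compared with sham surgery by limma 3.58.1 in R 4.3.3 (lmFit, eBayes, all genes, Benjamini-Hochberg adjustment), whose prior had 3.84 degrees of freedom. The calculation was tested on simulated data. Precision is limited by having 2 arrays per group, and p-values measure only the spread between these mice. Neither means nor differences of different probe sets are comparable as amounts of RNA. Scan dates were not used here, so processing batches could not be checked. Gene details and promoter windows were taken from RefSeq tables of GRCm38.p6. Probe sets cannot separate a gene from near-identical copies, of which these genes have many in the genome.

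The members and lists were chosen with earlier results of these data known. Named genes were the catalytic and core subunits, the isoform sets, up to 5 members in each direction without overlap and with the largest differences above the background stand-in, the 3 widest ranges, any member passing the test, and Cycs, Cyc1, Ppargc1a, Esrra, Nrf1, Gabpa and Tfam. Other members were named after their values were seen. Alternatives were another centring, repeated quantile normalisation, filters on low values, the mean of all probe sets and an intensity trend. Further alternatives were array weights, mouse number as a block, each array left out, and the methods' t-test. The array weights were equal within each group (0.882 for vasectomy, 1.13 for sham), so they could not set vasectomy array 2 apart.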

Additional observations from a re-analysis of the deposited data

How the results depend on the processing

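With 2 mice per group, small differences such as these could not be resolved, and array signals near background limit Cox7b2, Cox8b and the other dim members. No member and no gene passed limma's test at an adjusted p under 0.05 in the reported fit or in any alternative, including a replicate block, which takes mice of one number as a pair (0 members). The methods' t-test called 1 of the 89 members before adjustment, Atp5j, and 750 of the 22180 genes, and 0 of both after Benjamini-Hochberg. The study's methods speak of pairs of mice without saying which mice they join, and the labels do not say that mouse numbers are pairs. The deviations of same-numbered mice correlated at 0.191 over all genes and 0.444 over the members, and with 2 pairs this was not taken as a pairing. Read as pairs, 18 members were higher and 21 lower in both (all genes 23.0% and 24.5%), and Atp5o differed by -0.47 and -0.42 (SE 0.12 with the block). Repeated quantile normalisation raised the members lower without overlap from 6 to 10 (11.2%, all genes 13.2%). Leaving out 1 array, which makes overlap less likely, gave 17 to 32 members higher and 19 to 34 lower. The member shares lay below those of all genes without either vasectomy array (19.1% and 22.5% against 33.4% and 33.1% without array 1, 21.3% and 21.3% against 29.9% and 30.5% without array 2) and above them without either sham array. The median difference then ran from -0.03, without vasectomy array 1, to 0.01.

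Of 39 named members, 13 kept the sign of their difference in every alternative and 1, Sdhb, had a reported difference of 0.00. Another centring gave -0.01 for Atp5a1 and -0.01 for Cox7a2, repeated quantile normalisation -0.02 for Cox7a2, and the mean of all probe sets 0.03 for Cox5b. In 23 members the sign turned when 1 array was left out, and the differences then ran from -0.10 to 0.11 for Atp5a1, -0.08 to 0.23 for Atp5b, -0.28 to 0.12 for Atp5c1, -0.18 to 0.16 for Atp5g1, -0.11 to 0.05 for Atp5g2, -0.26 to 0.05 for Cox4i1, -0.22 to 0.13 for Cox4i2, -0.01 to 0.11 for Cox5a, -0.16 to 0.07 for Cox5b, -0.01 to 0.29 for Cox6a1, -0.27 to 0.01 for Cox6a2, -0.10 to 0.01 for Cox6b1, -0.13 to 0.16 for Cox6b2, -0.12 to 0.58 for Cox7a1, -0.19 to 0.20 for Cox7a2, -0.16 to 0.14 for Cox7a2l, -0.11 to 0.05 for Cox7b, -0.05 to 0.18 for Cox8c, -0.09 to 0.15 for Ndufa4, -0.07 to 0.21 for Ndufa4l2, -0.10 to 0.05 for Sdha, -0.02 to 0.32 for Sdhc and -0.20 to 0.05 for Uqcrfs1. The cause was not tested.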

Other observations

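Glycolysis, the cytosolic pathway that feeds the mitochondria, held the one gene of the metabolic lists with a wide difference. Of 13 measured genes, none passed limma's test at an adjusted p under 0.05, with a median difference of 0.03. Hk2, the hexokinase induced in growing and insulin-responsive tissue, read 6.25 and 5.49 after vasectomy and 7.21 and 6.38 after sham surgery, lower without overlap (difference -0.93, SE 0.36, adjusted p = 1 in limma). Of the phosphofructokinase genes, Pfkp (difference 0.42) and Pfkm (0.33) were higher in both vasectomy arrays than in both sham arrays. Tpi1 (-0.14) and Pkm (-0.09) were lower in both, so that 2 of the 13 were higher (15.4%) and 3 lower (23.1%) without overlap, where 12.5% and 12.0% of all genes were. Pfkl overlapped, at 6.52 and 6.77 against 6.71 and 6.45.

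A second probe set of 1 symbol was present for 9 members, all with a mean above the background stand-in. For Cox7b, Cox5b and Atp5h that mean lay just above it, at 4.63, 4.71 and 4.80. The difference of the second probe set had the sign of the brighter one in 5 of the 9. It ran from -0.04 for Cox7b to 0.38 for Atp5h. The largest gap between the paired differences was 0.43, for Ndufa12, where the brighter probe set gave -0.06 and the second 0.37, at 6.20 and 6.31 after vasectomy and 6.00 and 5.78 after sham surgery. That gap is close in size to the widest differences between the groups among the members, and which probe set represents the gene was not tested.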
